A study of Homo sapiens with 36 samples.

Results

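Chromosome 7 of K562, an established human chronic myeloid leukaemia cell line, carries 6 very long genes that are known as hosts of common fragile sites or lie in such regions: SDK1, THSD7A, AUTS2, MAGI2, IMMP2L and CNTNAP2. They were chosen by the untreated γH2AX lists, which cover long stretches of this chromosome, so γH2AX levels over the genes are given as a description, without a test. The 6 genes together span 7266 kb and hold 66 whole windows of 100 kb, of 1592 windows on chromosome 7 and 30367 over chromosomes 1 to 22 and X. In each of 22 lists of enriched regions, here called islands, the percent of each gene body inside islands was measured, and the same percent in 100-kb steps inside each gene. An island is given by its edges and its read count, and a list holds no value between islands.

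Chromatin immunoprecipitation had been done for macroH2A1, macroH2A1.2 and γH2AX, and the study asked where these lie before and after replication stress. The titles fall into 4 naming styles, called sets here. Set 1 has 2 untreated and 2 aphidicolin libraries each of macroH2A1 and γH2AX, and its aphidicolin titles carry the number 0.5 without a unit. Set 2 has 2 and 2 of macroH2A1.2 and of γH2AX, with replicates numbered 1 and 3. Set 3 has 1 γH2AX library per treatment for K562 and for another line, 2A3, whose nature was not taken from any source. Set 4 has 1 macroH2A1.2 library of K562 with the hairpin sh-RFP and 1 with the hairpin sh-mH1.2, neither labelled as treated. All groups other than 2A3 are K562, and those of sets 1 to 3 carry no hairpin in their labels. Nothing in the labels says that replicates came from separate cultures, so a p-value here measures spread among libraries that may be technical repeats. Lists held 2022630 to 75168077 reads in islands, 23.7 to 438.5 Mb of covered length and 33.4 to 180 reads for each kb of island.

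Common fragile sites are regions where metaphase chromosomes tend to show gaps and breaks when DNA replication is slowed. Many lie inside very long genes, where few replication origins fire and transcription can last through much of the cell cycle. Aphidicolin, an inhibitor of the replicative DNA polymerases, is the standard agent for inducing them. γH2AX is the phosphorylated form of the histone variant H2AX and spreads along chromatin around broken or stalled DNA, while macroH2A1 is an H2A variant with a large macro domain that is made as splice isoforms, among them macroH2A1.2. An island list records enrichment of these histones and holds no measure of chromosome breakage, so the name fragile site is background here and was not tested.

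The genes, in hg19 and with strands from RefSeq, lie in this order along the chromosome. SDK1 (chr7:3341001-4309000, plus strand, 968 kb) encodes a cell adhesion protein of the immunoglobulin superfamily. THSD7A (chr7:11410001-11872000, minus strand, 462 kb) encodes a membrane protein with thrombospondin repeats. AUTS2 (chr7:69064001-70258000, plus strand, 1194 kb) encodes a nuclear regulator of transcription that can join a Polycomb complex. MAGI2 (chr7:77646001-79083000, minus strand, 1437 kb) encodes a scaffold protein of cell junctions and synapses. IMMP2L (chr7:110303001-111203000, minus strand, 900 kb) encodes a subunit of the inner mitochondrial membrane peptidase, and CNTNAP2 (chr7:145813001-148118000, plus strand, 2305 kb) encodes a neurexin-family adhesion protein of the axon. Spans are known to 1 kb, and exons and introns were not used here, because the gene tables at hand are of another build.

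All 6 genes matched an entry in the RefSeq promoter table (GRCh38.p14, 250 bases before to 50 after the listed start), but the entry of SDK1 lies at a start inside the gene and is not shown. Promoters of the 3 genes whose islands are described most are printed because islands of each target were looked for around the gene starts. CG dinucleotides are in capitals. AUTS2 has 55 of them (chr7:69598225-69598524, plus strand), MAGI2 27 (chr7:79453618-79453917, minus strand) and CNTNAP2 16 (chr7:146116551-146116850, plus strand), all in GRCh38.p14 and not convertible here to the build of the islands. Over all 35116 promoters of the table the median was 14, and 41.2% had at least 20.
AUTS2: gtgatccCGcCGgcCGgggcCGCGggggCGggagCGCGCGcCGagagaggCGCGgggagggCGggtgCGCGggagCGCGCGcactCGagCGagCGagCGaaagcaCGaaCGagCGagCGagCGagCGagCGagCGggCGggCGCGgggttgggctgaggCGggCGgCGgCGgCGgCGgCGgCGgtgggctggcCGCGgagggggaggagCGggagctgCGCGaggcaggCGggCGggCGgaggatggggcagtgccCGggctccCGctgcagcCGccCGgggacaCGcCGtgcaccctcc
MAGI2: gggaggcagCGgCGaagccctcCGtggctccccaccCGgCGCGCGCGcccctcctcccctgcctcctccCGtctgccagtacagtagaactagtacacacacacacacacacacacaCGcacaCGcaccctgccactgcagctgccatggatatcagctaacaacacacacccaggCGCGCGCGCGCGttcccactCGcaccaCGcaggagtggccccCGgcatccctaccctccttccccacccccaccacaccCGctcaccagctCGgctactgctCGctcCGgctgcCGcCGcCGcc
CNTNAP2: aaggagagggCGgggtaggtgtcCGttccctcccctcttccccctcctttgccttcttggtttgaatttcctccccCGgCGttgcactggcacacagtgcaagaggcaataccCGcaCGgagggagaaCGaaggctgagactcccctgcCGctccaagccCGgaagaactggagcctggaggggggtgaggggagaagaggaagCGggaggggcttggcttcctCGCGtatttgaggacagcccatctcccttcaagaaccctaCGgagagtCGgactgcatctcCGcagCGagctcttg

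In untreated K562 of sets 1 and 2, γH2AX islands filled more than 18% of MAGI2 and of CNTNAP2 in every list and almost left them under aphidicolin. Over the 6 genes together the covered share was 15.5% ± 3.67 (SD, n = 4) untreated and 1.11% ± 0.287 (SD, n = 4) with aphidicolin, while chromosome 7 as a whole had 8.21% and 9.13%, and all chromosomes 2.30% and 5.83%. Bins of 1 Mb outside the genes could show the same order, so it is not particular to them. The bin chr7:85000001-86000000 had a mean of 38.8% untreated and 0.895% with aphidicolin, and chr7:109000001-110000000 had 37.5% and 0.215%. Others had the reverse order, such as chr7:73000001-74000000 with 0.615% and 49.7%. SDK1 and THSD7A had no γH2AX island in any of the 10 K562 lists, so the long stretches do not include them. Set 3 did not show the pattern: its untreated K562 list covered 0.864% of the 6 genes and its aphidicolin list 1.39%.

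MAGI2 had 18.2% and 26.9% of its body inside γH2AX islands in the untreated lists of set 1, 30.3% and 36.7% in those of set 2, and 0% in that of set 3. With aphidicolin the same gene had 1.18%, 1.03%, 1.16%, 1.02% and 0.821% in sets 1 to 3. Every untreated list of sets 1 and 2 was above every aphidicolin list, and set 3 had the opposite order. CNTNAP2, among the longest human genes, had 19.7%, 30.6%, 22.2% and 33.0% in the untreated lists of sets 1 and 2 and 1.86% in set 3. With aphidicolin it had 0.616%, 0.651%, 2.20%, 2.93% and 2.11%. The groups again did not overlap in sets 1 and 2, and differed little in set 3.

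IMMP2L separated the sets even without treatment. Its untreated γH2AX coverage was 1.62% and 1.33% in set 1, 15.3% and 18.0% in set 2, and 2.22% in set 3. With aphidicolin it was 0.467%, 0.778%, 0%, 0% and 4.51%. The mean difference of -8.77 percentage points over sets 1 and 2 was thus -16.7 points in set 2 and -0.856 points in set 1, and the set 3 lists had the reverse order.

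AUTS2 was covered little by γH2AX in either condition. Untreated lists had 6.90% and 2.08% in set 1, 0.369% and 1.02% in set 2, and 0% in set 3. Aphidicolin lists had 2.40% and 6.11% in set 1 and 0% in the others, and the groups overlapped. In order of untreated γH2AX level, MAGI2 (28.0% ± 7.70) and CNTNAP2 (26.4% ± 6.42; SD, n = 4 each) came first and did not differ beyond their spread. IMMP2L (9.08% ± 8.85) and AUTS2 (2.59% ± 2.96) followed and overlapped each other, and SDK1 and THSD7A were at 0.

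**Figure D1:**
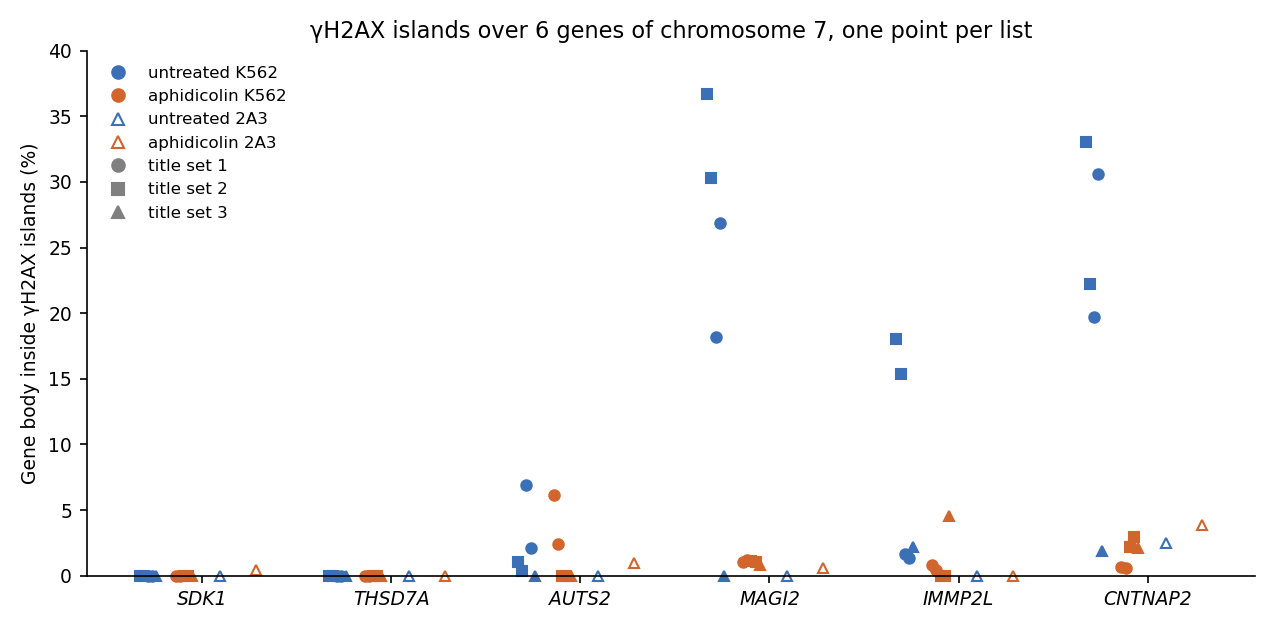
Percent of each gene body (y axis) inside γH2AX islands, 1 point per list, for the 6 genes (x axis); circles, squares and triangles are title sets 1, 2 and 3, blue untreated, orange aphidicolin, open symbols line 2A3. The untreated K562 points of sets 1 and 2 lie between 18.2% and 36.7% in MAGI2 and between 19.7% and 33.0% in CNTNAP2, and every other point of these genes is at 3.89% or less.

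Line 2A3 had 1 γH2AX list per treatment, so no test was possible. Untreated 2A3 had islands only in CNTNAP2 among the 6 genes, over 2.52% of it. With aphidicolin CNTNAP2 had 3.89%, AUTS2 0.955%, MAGI2 0.571% and SDK1 0.413%, while THSD7A and IMMP2L had 0%. The untreated 2A3 list covered 7.95% of chromosome 7 and 0.798% of the 6 genes.

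Inside MAGI2, untreated γH2AX was spread over the whole gene. All 13 of its 100-kb windows were higher in each of the 4 untreated lists of sets 1 and 2 than in each of the 4 aphidicolin lists, as were 18 of 22 windows of CNTNAP2. Over the 6 genes this held for 31 of the 50 windows covered in at least 2 of these 8 lists, against 9.89% of 13100 such windows over all chromosomes. The reverse order held for 1 of the 50, against 25.3% over all chromosomes. These counts describe the values that chose the genes, and nothing is read from them.

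CNTNAP2 had its highest coverage near the gene start. When each gene was cut into 3 equal parts from its start, untreated γH2AX covered 43.4% ± 11.7, 23.4% ± 5.44 and 12.3% ± 5.65 of CNTNAP2 (SD, n = 4). MAGI2 had 31.6% ± 13.0, 30.7% ± 8.39 and 21.7% ± 4.25. IMMP2L ran the other way, with 2.87% ± 3.32, 6.68% ± 6.85 and 17.7% ± 16.5, where the wide spread is the difference between sets.

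The window with the highest untreated mean in CNTNAP2 was the second from the start (chr7:146000001-146100000), with 51.6%, 66.2%, 59.2% and 72.8% in the untreated lists and 10.6% or less in the aphidicolin lists. In MAGI2 it was the seventh (chr7:78300001-78400000), with 33.8%, 53.4%, 41.6% and 49.4% untreated and 0% in all 4 aphidicolin lists. The highest window of IMMP2L, the eighth (chr7:110400001-110500000), had 0% in both untreated lists of set 1 and 35.6% and 47.6% in set 2. In AUTS2 the sixth window (chr7:69600001-69700000) had 20% in 1 untreated list of set 1, 4.40% in 1 of set 2 and 0% in the other two.

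The γH2AX islands were many and short rather than single blocks. In CNTNAP2 the untreated lists of sets 1 and 2 had 72, 103, 99 and 144 islands, with a median length of 4.4 to 5.6 kb, and in MAGI2 48, 66, 84 and 100. The longest γH2AX island of CNTNAP2, 34.0 kb (chr7:146113801-146147800), and that of MAGI2, 27.6 kb (chr7:78998601-79026200), were both in set 2 replicate 3 untreated. Shared positions were fewer than the percentages alone would show: 2 untreated lists of 1 set shared 28.3% to 36.3% of their joint length in CNTNAP2 and 17.5% to 32.2% in MAGI2. Bases inside islands of all 4 untreated lists summed to 100.4 kb in CNTNAP2 and 29.6 kb in MAGI2, and to 0 kb in IMMP2L. Reads per kb of island within the 6 genes were 0.726 to 0.836 of the value over the whole list in the untreated lists of sets 1 and 2, and 0.775 to 0.857 in the aphidicolin lists.

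The untreated γH2AX domain ran past at least 1 edge of MAGI2, CNTNAP2 and IMMP2L, and coverage was low past the ends of MAGI2 and CNTNAP2. In the 1 Mb before the start of MAGI2, untreated lists had 42.9% ± 9.11 (SD, n = 4), above the gene itself in each list, and the 1 Mb after its end had 5.24% ± 1.79. CNTNAP2 had 25.0% ± 9.89 before its start and 0.850% ± 0.689 after its end. For IMMP2L the higher side was past the gene end, with 34.7% ± 11.4, against 10.5% ± 3.38 before the start. With aphidicolin the order around CNTNAP2 was turned: γH2AX covered 36.9% ± 12.6 of the 1 Mb past its end and 0.560% ± 1.12 of that before its start.

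**Figure D2:**
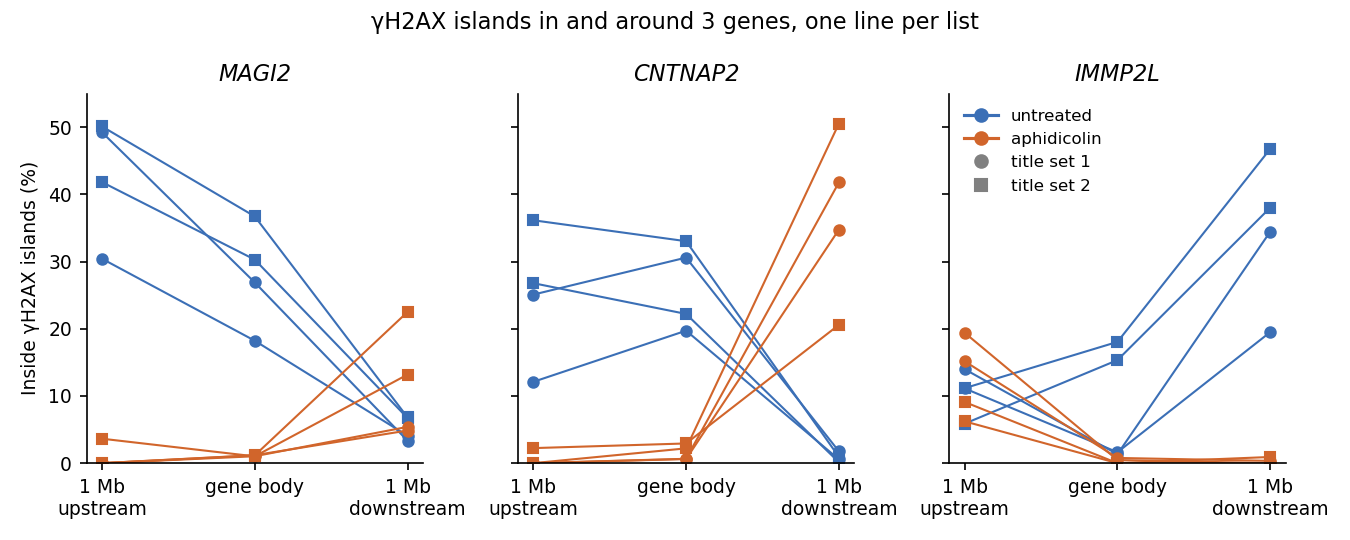
Percent inside γH2AX islands (y axis) of the gene body and of the 1 Mb on either side of it (x axis), 1 line per list of title sets 1 (circles) and 2 (squares), blue untreated and orange aphidicolin. Untreated lines of MAGI2 start at 30.4% to 50.1% upstream, and aphidicolin lines of CNTNAP2 end at 20.6% to 50.5% downstream.

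MacroH2A lay elsewhere in the same genes. AUTS2 was the gene with most macroH2A, and every aphidicolin list covered more of it than every untreated list for both antibodies. The same order held over chromosome 7 and over all chromosomes. MAGI2 and CNTNAP2 had macroH2A mainly toward their ends, SDK1 had 2.50% or less, and IMMP2L and THSD7A had no macroH2A island within the gene in any of the 10 macroH2A lists. MacroH2A lists were not used to choose the genes, so their change with aphidicolin was tested.

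AUTS2 had 40.3% and 40.1% of its body inside macroH2A1 islands untreated, and 58.0% and 51.3% with aphidicolin. For macroH2A1.2 it had 24.0% and 22.6% untreated and 52.4% and 44.2% with aphidicolin. The groups did not overlap for either antibody, with differences of 14.4 points for macroH2A1 and 25.0 points for macroH2A1.2. Nor did they over chromosome 7 or over all chromosomes, so the lack of overlap is not particular to AUTS2. For macroH2A1 the AUTS2 mean with aphidicolin was 1.36 times the untreated mean, close to the 1.30 times over all chromosomes. For macroH2A1.2 it was 2.08 times, against 1.18 times over all chromosomes. MAGI2 had 6.21% and 6.24% macroH2A1 untreated and 6.54% and 5.87% with aphidicolin, which overlap. Its macroH2A1.2 coverage was 8.30% and 6.44% untreated and 11.5% and 17.0% with aphidicolin. CNTNAP2 had 3.09% and 3.42% macroH2A1 untreated, and 4.63% and 5.08% with aphidicolin. For macroH2A1.2 CNTNAP2 went from 3.26% and 3.29% to 8.33% and 9.5%, a 2.72-fold higher mean.

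Over the 6 genes together macroH2A1 coverage was 8.99% and 9.0% untreated and 12.5% and 11.5% with aphidicolin, a difference of 3.0 points (exact permutation test over libraries, two-sided, p = 0.333, the smallest that 2 against 2 can give). That difference was 3.48 points over chromosome 7 and 3.33 over all chromosomes. MacroH2A1.2 coverage was 6.67% and 6.05% untreated and 13.6% and 13.7% with aphidicolin, a difference of 7.27 points (exact permutation p = 0.333). Here chromosome 7 gained 3.16 points and all chromosomes 1.60, so the 6 genes had 2.14 times, the chromosome 1.29 times and the genome 1.18 times their untreated level. When every list was cut to the same covered length, keeping the islands with most reads per kb, the difference over the 6 genes was -1.29 points for macroH2A1, a change of direction, and 3.79 points for macroH2A1.2. AUTS2 then had differences of -4.30 points for macroH2A1 and 11.8 points for macroH2A1.2. Reads per kb of island within the 6 genes were 0.863 to 0.896 of the value over the whole list for macroH2A1. For macroH2A1.2 of set 2 they were 0.858 to 0.876. A cut by reads per kb is thus not neutral for these genes.

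**Figure D3:**
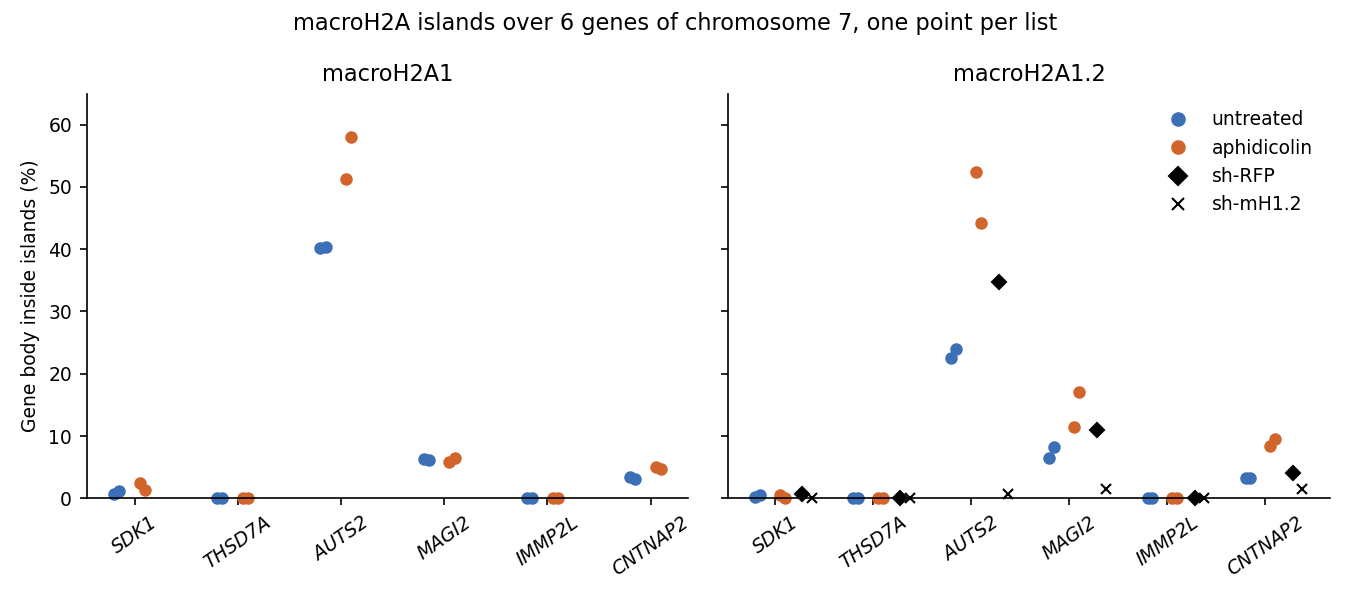
Percent of each gene body (y axis) inside macroH2A1 (left) and macroH2A1.2 (right) islands for the 6 genes (x axis), 1 point per list: blue untreated, orange aphidicolin, diamond sh-RFP, cross sh-mH1.2. In AUTS2 the macroH2A1.2 aphidicolin lists are at 44.2% and 52.4%, above the untreated lists at 22.6% and 24.0%, and the sh-mH1.2 list is at 0.737%.

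In the window fits, higher macroH2A1.2 calls were in AUTS2 and at the end of CNTNAP2. Limma was run over all windows covered in at least 2 of the 4 lists, with Benjamini-Hochberg adjustment over all of them and a threshold of 0.05. Of the 66 windows inside the genes, 27 passed the coverage filter for macroH2A1.2, and 23 of them had an island in an untreated list. Higher calls numbered 11 of the 27, against 15.2% (1880 of 12335) over all windows, and lower calls 0, against 6.73%. By edgeR and DESeq2 on reads in islands 0 were also called lower, against 13.6% and 23.7% of all windows. The 4 windows without an untreated island, 3 in MAGI2 and 1 in CNTNAP2, could only gain coverage and passed the filter through the aphidicolin lists. Among windows with an untreated island, 10 of 23 were called higher and 0 lower, against 14.8% and 7.31% of 11360 such windows over all chromosomes, and the median differences were 20.3 and 0.5 points. AUTS2 had 8 of these 10 calls, among 11 windows tested, and CNTNAP2 the other 2. MAGI2 had 0 calls in 8 windows and SDK1 0 in 1. With every list cut to equal covered length the higher calls were 3 of 24, against 7.8% of all windows, and with the upper 50% of islands 5 of 17, against 8.25%.

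CNTNAP2 had the largest single difference in its last window, the 22nd (chr7:148000001-148100000). MacroH2A1.2 covered 21.6% and 26.8% of it untreated and 72.6% and 86.2% with aphidicolin (24.2% ± 3.68 and 79.4% ± 9.62, SD, n = 2; limma adjusted p = 0.0188). The window before it went from 23.7% ± 4.67 to 58.5% ± 8.91 (SD, n = 2; limma adjusted p = 0.0338). Groups did not overlap in either window, but no share of such windows over all chromosomes was taken. The 20th had no island in either untreated list and 15.4% ± 4.24 (SD, n = 2) with aphidicolin, and since it was tested only through the aphidicolin lists its call is not used. In the last of the 3 equal parts of CNTNAP2 macroH2A1.2 covered 8.36% ± 0.810 untreated and 23.8% ± 3.04 with aphidicolin, and in the middle part 0% and 0.443%.

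In AUTS2 the called windows were spread from the second to the last. Its ninth window (chr7:69900001-70000000) had 49.2% and 51.4% macroH2A1.2 untreated and 84.2% and 90.0% with aphidicolin (a difference of 36.8 points, SE 2.94, limma adjusted p = 0.0140). The eleventh (chr7:70100001-70200000) went from 56.3% ± 2.40 to 90.8% ± 3.11 (SD, n = 2; limma adjusted p = 0.0140). Between them, the tenth window was nearly full before treatment, with 90.4% untreated and 93.0% with aphidicolin, and was not called. The second, sixth, seventh and eighth windows gained 26.5 to 34.4 points, and the third and the fourth 25.9 and 20.3 points. The named windows are, among those called, at most the 10 with the largest difference per antibody and direction, and the window of CNTNAP2 with 15.4 points, the eleventh call, was added after its value was seen.

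MAGI2 had most of its macroH2A1.2 far from its start, as did CNTNAP2. Its last window (chr7:77700001-77800000) had 43.8% and 25.8% untreated and 52.4% and 67.8% with aphidicolin, and was not called by limma. In the last of its 3 equal parts macroH2A1.2 covered 21.5% ± 4.78 untreated and 38.8% ± 12.1 with aphidicolin.

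MacroH2A1 passed the test in fewer windows. Of 28 windows tested inside the genes, 2 (7.14%) were called higher, close to the 6.71% (854 of 12732) over all windows, and 0 lower, against 0.11%. At an unadjusted p under 0.05, 7 were higher and 1 lower, but no share over all windows was taken at that threshold, so nothing is read from these 2 counts. By DESeq2 5 were called higher and 5 lower, against 21.2% and 18.3% of all windows. The calls were the eighth window of AUTS2 (chr7:69800001-69900000), which went from 60.2% ± 4.53 to 86.9% ± 3.82 (SD, n = 2; limma adjusted p = 0.0490), and the 21st of CNTNAP2 (chr7:147900001-148000000), from 23.4% ± 1.41 to 39.8% ± 1.13 (limma adjusted p = 0.0414). Both had a difference below 0 at equal covered length (-10.4 and -12.5 points). The median difference over the 28 was 2.05 points, below the 4.90 over all tested windows. In the last of the 3 equal parts of AUTS2 macroH2A1 already covered 83.0% ± 2.45 untreated, and 90.8% ± 0.782 with aphidicolin.

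The difference between the antibodies was tested in 1 limma fit of the 8 macroH2A libraries. The change of macroH2A1.2 exceeded that of macroH2A1 in 2 of 29 windows inside the genes, against 3.13% over all windows, and fell short of it in 0, against 7.05%. Both were in AUTS2: the ninth window (36.7 points, SE 3.36, limma adjusted p = 0.00731) and the eleventh (30.4 points, SE 4.24, limma adjusted p = 0.017). MacroH2A1 already covered 97.2% and 91.9% of them untreated. The antibodies come from different title sets and cannot be told apart from them. For each antibody on its own, leaving out 1 library leaves a group with 1 list. Each such macroH2A1 fit called no window, in the genes or over all chromosomes. The macroH2A1.2 fits did the same, except that without untreated replicate 3, where part of the calls remained. The loss of calls is thus not particular to the genes.

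**Figure D4:**
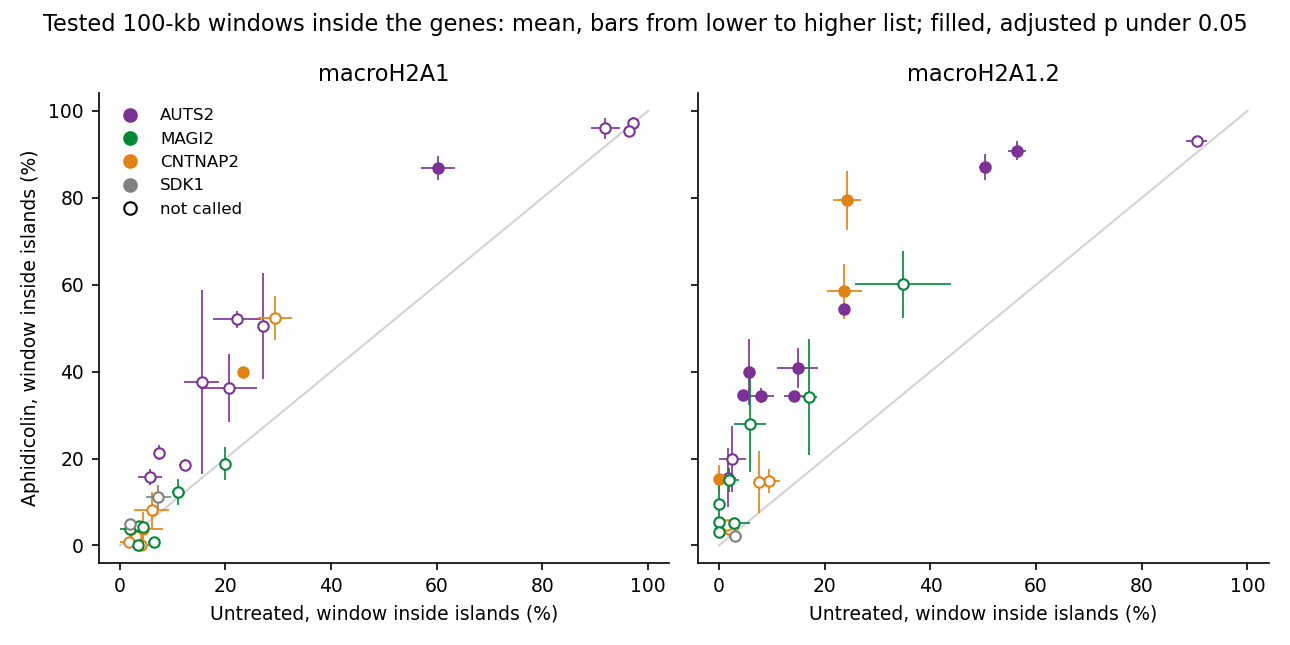
Percent of each tested 100-kb window inside islands, untreated (x axis) against aphidicolin (y axis), for macroH2A1 (28 windows, left) and macroH2A1.2 (27, right), as the mean of 2 lists with bars from the lower to the higher list; filled points passed an adjusted p of 0.05 in limma and the grey line marks equality. Filled points number 2 for macroH2A1 and 11 for macroH2A1.2, the latter in AUTS2 and CNTNAP2.

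AUTS2 lay inside a wider macroH2A domain. Its 1-Mb flanks had 41.7% and 44.5% macroH2A1 untreated, before the start and past the end, and 64.4% and 72.4% with aphidicolin. For macroH2A1.2 the flanks had 5.69% and 8.33% untreated and 31.8% and 40.4% with aphidicolin, so untreated macroH2A1.2 was lower in the flanks than in the gene (23.3%). CNTNAP2 had macroH2A on 1 side, with 34.8% macroH2A1 and 36.7% macroH2A1.2 in the 1 Mb past its end and 0.810% and 0.700% before its start.

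Around the gene starts, the 10 kb centred on the start of AUTS2 had 0% macroH2A1 in both untreated lists and 38.0% and 24.0% with aphidicolin. MacroH2A1.2 covered 32.0% and 0% untreated and 52.0% and 30.0% with aphidicolin, which overlap, and γH2AX 0% in all 8 lists of sets 1 and 2. MAGI2 and CNTNAP2 had no macroH2A there in any of the 8 lists, while untreated γH2AX covered 0% to 42.0% around the start of MAGI2 and 0% to 28.0% around that of CNTNAP2, and 0% with aphidicolin. With 10 kb and a start known to 1 kb, 1 short island decides such a value.

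**Figure D5:**
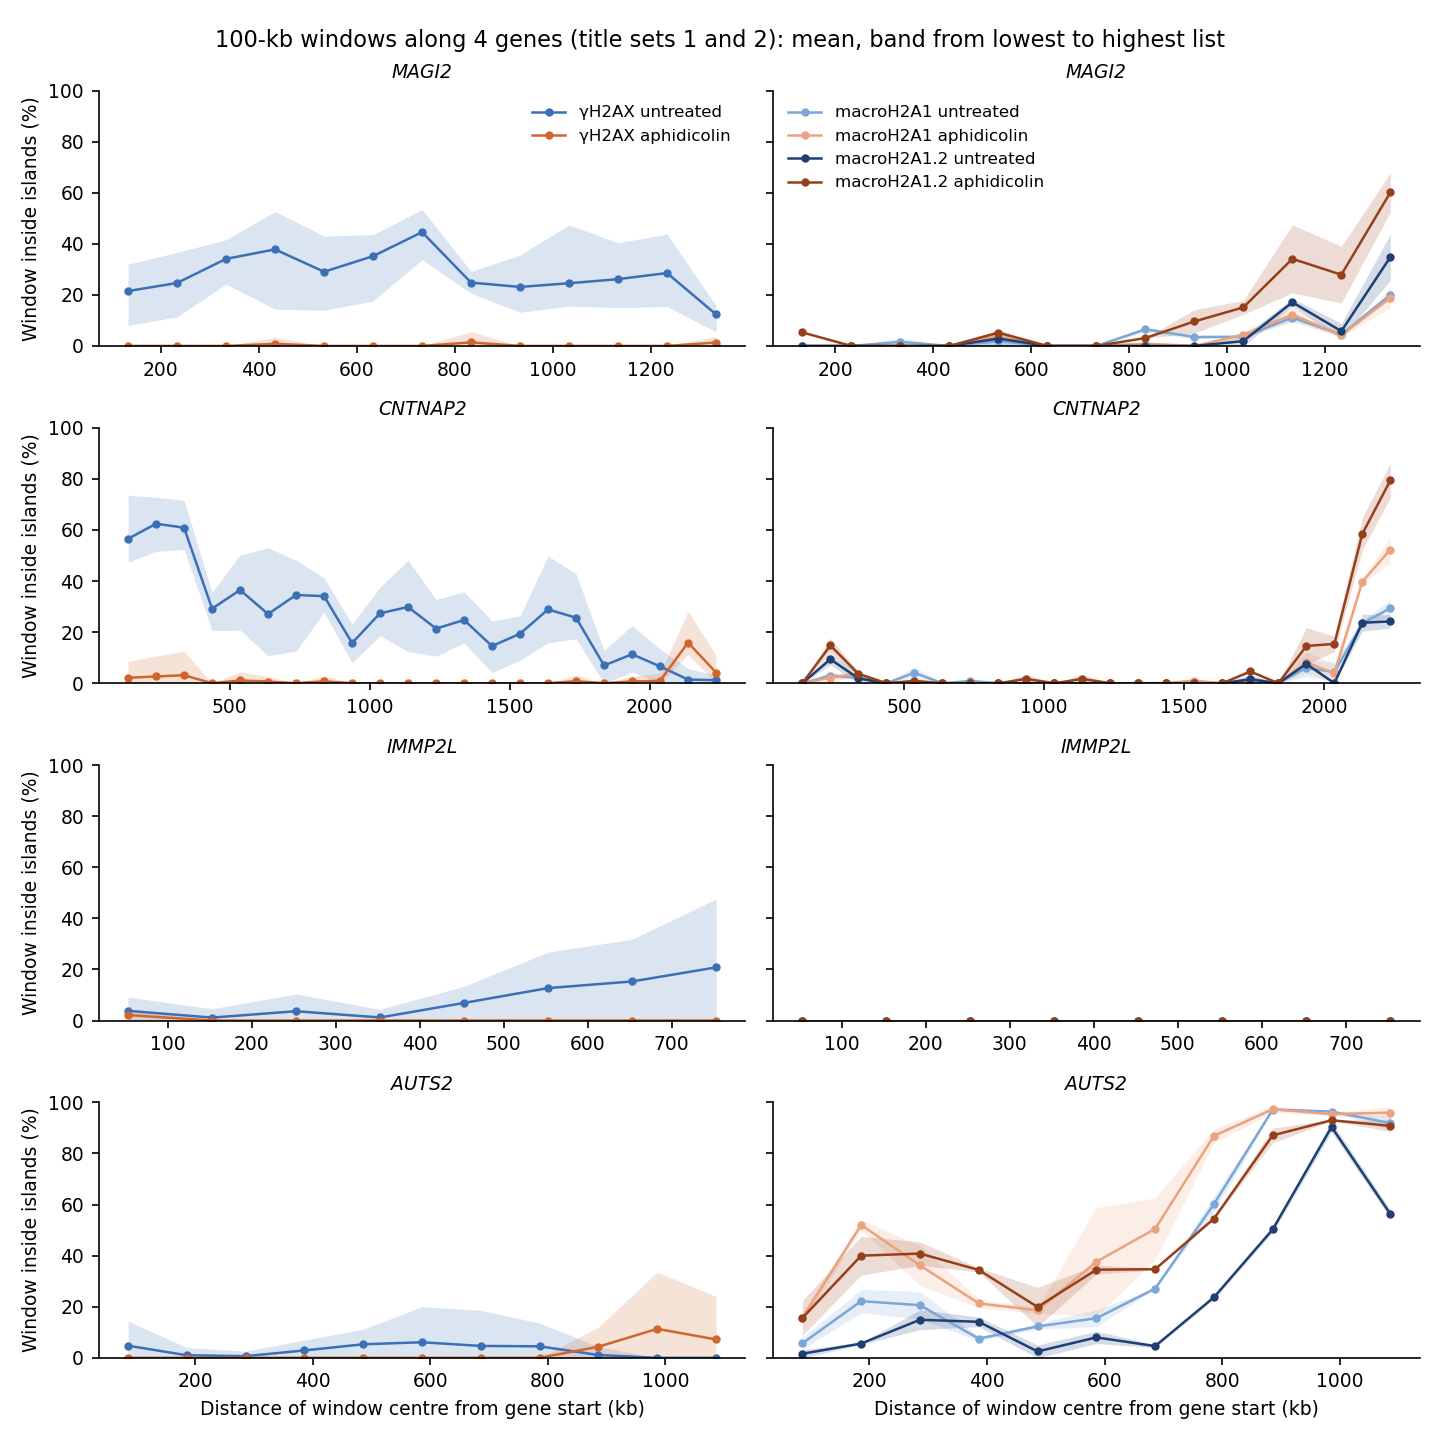
Percent of each 100-kb window inside islands (y axis) by distance of the window centre from the gene start in kb (x axis), for MAGI2, CNTNAP2, IMMP2L and AUTS2; points are means of 4 γH2AX lists (left) or 2 macroH2A lists (right) of sets 1 and 2, and bands run from the lowest to the highest list. γH2AX of untreated cells is high near the start of CNTNAP2 (62.5% in the second window), and macroH2A1.2 with aphidicolin is high at its end (79.4% in the last).

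Untreated γH2AX and macroH2A rarely held the same bases over the 6 genes together, but AUTS2 varied among lists. In untreated cells 1.23% to 6.74% of the γH2AX length in the 6 genes lay inside macroH2A islands, each γH2AX list being set against the macroH2A list whose title shares its stem (4 pairs, median 1.97%), where macroH2A covered 6.05% to 9.0% of the genes. Pairs of set 1 hold macroH2A1 and those of set 2 macroH2A1.2, so ranges and medians mix both antibodies. AUTS2 alone had 32.0% and 31.5% in set 1 and 100% and 0% in set 2. Its γH2AX length was 4.4 to 82.4 kb, and macroH2A covered 22.6% to 40.3% of it. With aphidicolin the share in the 6 genes was 33.1% to 80.0% (median 63.9%), where macroH2A covered 11.5% to 13.7%, but of a γH2AX length of 64.0 to 109.8 kb instead of 813.2 to 1463 kb. AUTS2 then had 96.5% and 93.2% in set 1, where macroH2A1 covered 58.0% and 51.3% of it, and no γH2AX in set 2. MAGI2 had 54.8% to 75.9%, where macroH2A covered 5.87% to 17.0%. CNTNAP2 had 28.4% to 74.7%, where macroH2A covered 4.63% to 9.50%. IMMP2L, without macroH2A in the gene, had 0%. On chromosome 7 outside the genes the shares were 3.94% to 8.85% untreated and 40.1% to 60.0% with aphidicolin. There macroH2A covered 10.4% to 13.6% untreated and 14.2% to 16.9% with aphidicolin. Of the 66 windows, 34 had an untreated γH2AX mean of at least 10%, and 1 of those had at least 20% macroH2A1. Across these windows, which share libraries and lie side by side, Pearson's r between untreated γH2AX and untreated macroH2A1 was -0.30, and -0.25 for macroH2A1.2, given as a description. Spearman's rho was -0.13 and -0.16, and 10 of the 66 windows had at least 20% macroH2A1 and 7 at least 20% macroH2A1.2.

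A window that held both marks under aphidicolin was the 21st of CNTNAP2, where shared bases were not measured. γH2AX covered 0%, 5.80%, 0% and 0% of it in the untreated lists of sets 1 and 2, and 11.8%, 11.2%, 28.2% and 12.4% with aphidicolin, the only one of the 66 windows where every aphidicolin list was above every untreated list. In line 2A3 it had 11.8% untreated and 40% with aphidicolin, and in K562 of set 3 8.40% and 33.0%. For macroH2A1.2 the same window was called, and its difference was 23 points at equal covered length. Its macroH2A1 call had a difference of -12.5 points there and -2.50 with the upper 50% of islands. Both calls were lost when any 1 list of their antibody was left out, but most such fits called no window over all chromosomes.

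The hairpin lists had 1 library each and no test. The sh-mH1.2 list covered 0.781% of all chromosomes and the sh-RFP list 13.8%. With sh-RFP, macroH2A1.2 covered 34.8% of AUTS2, 10.9% of MAGI2, 4.08% of CNTNAP2 and 0.764% of SDK1. With sh-mH1.2, which targets macroH2A1.2, it covered 0.737%, 1.43%, 1.49% and 0%, and the 6 genes together 0.878% instead of 9.26%. The covered length with sh-mH1.2 was 36.6% of that with sh-RFP in CNTNAP2, 13.2% in MAGI2 and 2.12% in AUTS2, a ratio of lengths that does not say whether the same bases were covered. Of the 63.8 kb left in the 6 genes with sh-mH1.2, 9.72% lay inside sh-RFP islands, which cover 9.26% of the genes. By contrast 78.1% lay inside a γH2AX island of at least 1 untreated list of sets 1 and 2, which together cover 37.3% of the genes. In CNTNAP2 those shares were 0% and 92.4%, in MAGI2 11.7% and 87.4%, and in AUTS2, where 8.8 kb was left, 43.2% and 0%. On chromosome 7 outside the genes they were 22% and 76.7%, where untreated γH2AX islands cover 18.9%. Islands of the sh-mH1.2 list had 25.4 reads per kb in the 6 genes and 85.3 over the whole list, and what these shared places stem from was not tested.

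SDK1 and THSD7A were nearly empty of every target. All 3 windows of THSD7A and 5 of 9 of SDK1 held no island in any of the 22 lists, and these 8 made up 12.1% of the 66 windows, against 27.5% of all windows that were empty. This was not particular to THSD7A. The 1-Mb bins chr7:10000001-11000000 and chr7:13000001-14000000 near it had means of 0% for γH2AX in both conditions and for both macroH2A antibodies untreated. The 1-Mb flanks of SDK1, by contrast, had 14.8% and 9.26% macroH2A1 untreated. SDK1 had macroH2A1 in 1.20% and 0.702% untreated and 1.28% and 2.50% with aphidicolin. IMMP2L had no macroH2A island in the gene, although its 1 Mb before the start had 8.46% ± 0.283 macroH2A1 and 15.7% ± 5.06 macroH2A1.2 untreated (SD, n = 2).

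The longest macroH2A island of the genes was in AUTS2, 174.6 kb (chr7:69984201-70158800) with sh-RFP, at 214 reads per kb, and it covers the tenth window whole. CNTNAP2's longest was 35.8 kb (chr7:147941401-147977200) in macroH2A1 aphidicolin replicate 2, and MAGI2's 40.4 kb (chr7:77671001-77711400) with sh-RFP.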

How the data were processed

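The deposited lists hold, per the files themselves, whole-number counts of reads per island from each library, which the authors did not scale to library size. The submitters' processing notes name Bowtie2 2.1.0, SICER 1.1, deepTools and hg19, with no role for any. List names carry a 200-bp window, a 600-bp gap and a false discovery rate of 0.01. The 14 input libraries were not analysed here, and the total reads per library are unknown, so no interval from counts is given.

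Here, island ends were counted inclusively, chromosomes Y and M were left out (792 rows), and covered length was the measure, because a list has no value between islands. Windows of 100 kb covered in at least 2 libraries were fitted with limma 3.58.1 and adjusted by the Benjamini-Hochberg method. Each macroH2A antibody was fitted within its title set. Alternatives were equal covered length, stricter islands, longer islands, other filters and scales, edgeR 4.0.16, DESeq2 1.42.0, a replicate block and leaving out each library. The fits were run on simulated data, for limma with less spread than between the untreated lists, which does not show how well they work here. All 6 genes are named; windows are named if called (at most 10 per antibody and direction) or highest for untreated γH2AX in a gene. The members and lists were chosen with earlier results of these data known. Figures were drawn with matplotlib 3.10.9.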

Additional observations from a re-analysis of the deposited data

Results flagged for a closer look

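IMMP2L had γH2AX over 4.51% of its body in the aphidicolin K562 list of set 3, apart from the other 4 aphidicolin lists, which had 0% to 0.778%. Such a gap is found in about 1 in 20 groups of independent, normally distributed values. Percents near 0 from different title sets are not such values, so that rate need not hold here. The search covered 10 groups and regions, of which 1 had such a list.

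The change of macroH2A1.2 with aphidicolin exceeded that of macroH2A1 in 2 windows of AUTS2, by 36.7 points in the ninth and 30.4 points in the eleventh, by the limma test of the difference itself. MacroH2A1 already covered 97.2% and 91.9% of these windows untreated, and whether this bears on the difference was not tested. Antibody and title set cannot be told apart.

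In set 3 the γH2AX difference between aphidicolin and untreated K562 was 0.821 points in MAGI2, 2.29 points in IMMP2L and 0.252 points in CNTNAP2, while in sets 1 and 2 every aphidicolin list was below every untreated list of its set. Set 3 has 1 library per treatment, and this difference between sets was not tested. The set 3 lists covered 1.27% and 2.13% of all chromosomes, against 1.93% to 2.81% in the untreated and 2.40% to 7.75% in the aphidicolin lists of sets 1 and 2.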

How the results depend on the processing

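The 2 higher macroH2A1 calls were 0 at equal covered length (0.0348% of all windows), with the upper 50% of islands (3.07%), without the window filter (0.25%), with edgeR (0.11%) and with the replicate block (0%). They were 5 with DESeq2 (21.2%), and 1 when AUTS2 was left out, an alternative chosen after seeing the data. In the settings with 0 calls, counts at an unadjusted p under 0.05 were 0, 4, 6, 3 and 5. No share over all windows was taken at that threshold, here or below, so nothing is read from such counts. Lower macroH2A1 calls were 1 on the arcsine scale (0.416% of all windows) and 5 with DESeq2 (18.3%). Leaving out 1 library, which leaves a group with 1 list, took the higher macroH2A1 calls away in each case, in the genes and over all chromosomes. For macroH2A1.2 the 11 higher calls were 3 at equal covered length (7.8% of all windows), 5 with the upper 50% of islands (8.25%) and 3 without the filter (0.501%). They were 5 with the replicate block (3.65%) and 3 without AUTS2. Without 1 library they were lost in part or in full, but most such fits called no window over all chromosomes. Where 1 library was left out, the lone one was assumed to vary like the other group. The 2 antibody differences were 1 at equal covered length (3.51% of all windows), 0 without AUTS2 (7 at an unadjusted p under 0.05) and 1 to 5 without 1 library (0.874% to 3.09%): 1 without untreated or aphidicolin replicate 2 of macroH2A1, and 5 (2.31%) without aphidicolin replicate 1 of macroH2A1.2.

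At equal covered length the macroH2A1 difference turned to -1.29 points over the 6 genes, -0.310 in SDK1, -4.30 in AUTS2, -1.07 in CNTNAP2, -10.4 in the eighth window of AUTS2 and -12.5 in the 21st of CNTNAP2, which was -2.50 with the upper 50% of islands. The γH2AX difference over the 6 genes was -7.67 points with the upper 50% of islands and 0.53 in set 3 on its own, where MAGI2 had 0.821, IMMP2L 2.29 and CNTNAP2 0.252. The cause was not tested in any of these, except that left-out libraries and the missing filter change the numbers of libraries or windows. Without 1 library the differences over the 6 genes ran from -15.8 to -12.8 for γH2AX, from 2.55 to 3.46 (macroH2A1) and from 6.96 to 7.58 (macroH2A1.2), where the last was 4.22 with the upper 50% of islands.

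The same replicate number marks no shared batch in the labels, and deviations of same-numbered lists correlated at 0.0105 for macroH2A1 and -0.0898 for macroH2A1.2. Depth limits what a list can hold: weakly enriched bases are in no island, and a missing island does not show that the histone is absent.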

Other observations

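Of all 1-Mb bins on chromosome 7 outside the genes, that whose coverage ran most like the 6 genes over the 22 lists was chr7:126000001-127000000 (Pearson's r 0.956), with γH2AX over 21.0% to 27.0% untreated and a mean of 0.545% with aphidicolin in sets 1 and 2. The next were chr7:93000001-94000000 (0.869) and chr7:54000001-55000000 (0.865). On other chromosomes they were chr5:39000001-40000000 (0.950), chr6:8000001-9000000 (0.926) and chr11:87000001-88000000 (0.888). The 22 points share libraries and depth, and the bins were chosen for this likeness, so these values are a description.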
